A study of Mus musculus with 8 samples.

Results

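The genes described here are the carriers that move amino acids, glucose and related small solutes across cell membranes. They were taken as every probe whose annotated symbol belongs to the solute carrier families Slc1, Slc2, Slc3, Slc5, Slc6, Slc7, Slc36, Slc38 or Slc43. The rule found 60 genes, read by 62 probes, among 12746 named genes and 16361 probes in all. It used symbols and no measured value, but was set with earlier results of these data known. All 60 genes had values on all 8 arrays and were tested; 2 of them, Slc38a4 and Slc38a10, were read by 2 probes that were averaged.

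The arrays compared mpkCCDc14 cells, a mouse cell line of the kidney cortical collecting duct, after aldosterone with the same cells after ethanol vehicle. Aldosterone, the adrenal mineralocorticoid hormone, was given at 1 µM for 6 h (4 arrays) or for 1 h (4 arrays), and each array carried its own vehicle RNA of the same duration. The cells of all groups had been grown on collagen-coated filters and kept in steroid-free serum before treatment. On each array the aldosterone cDNA carried Cy5 and the vehicle cDNA Cy3, so a log2 ratio above 0 means more signal with aldosterone.

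Cells take up glucose either passively, through the Slc2 (GLUT) uniporters, or with sodium, through Slc5 members such as the SGLT proteins. Amino acids enter through several families with different driving ions, and the Slc3 heavy chains bring Slc7 light chains to the membrane to form exchangers. In the kidney most glucose and amino acid reabsorption belongs to the proximal tubule, whereas collecting duct cells use carriers mainly to feed themselves and to hold organic osmolytes such as taurine, betaine and inositol.

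Some facts of the whole series bear on these results. Aldosterone cDNA was Cy5 on every array, so at either time a probe's dye effect and its response to the hormone cannot be told apart. In 6 h minus 1 h, a dye effect that is equal on all arrays cancels. The values are ratios with no intensity, so the level of a carrier, its signal over background and the presence of collecting duct markers could not be checked. As ratios, 1 of 10 measured principal cell markers was above vehicle at 6 h (Scnn1a) and 1 below (Elf5), and at 1 h 1 was above and 3 were below, or 20% at 6 h and 40% at 1 h, near the shares over all features (17.8% at 6 h and 41% at 1 h). Fewer cells and less RNA per cell cannot be told apart in such samples. Replicate 4 had the widest ratios at each time. Its standard deviation over all features tested was 0.481 at 6 h (other 6 h arrays 0.300 to 0.380). At 1 h it was 0.576 (other 1 h arrays 0.340 to 0.348). Replicate numbers only name the arrays and pair none across the times. Sgk1, a kinase gene that aldosterone is known to induce, had log2 ratios of 1.46 to 2.65 on the 6 h arrays, and of 1.65, 1.38, -0.64 and -0.16 on 1 h replicates 1 to 4. The 1 h arrays thus differed in the sign of this gene, and Tsc22d3 differed likewise (1.01, 0.88, -0.60 and -0.15), while Fkbp5 (0.76, 0.69, 0.03 and 0.63) and Scnn1a (0.59, 0.43, 0.12 and 0.55) were above 0 on all 4 arrays at 1 h. Nothing in the labels ties the arrays to separate cultures, so the p-values rest on a spread between arrays that may be technical. With 4 arrays at each time, that number limits the precision.

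The promoters of carrier genes are shown for 1 motif that bears on a group described below, the amino acid response element. It is bound by C/EBP-ATF dimers such as those with ATF4, and is known from the promoter of Slc7a11, the cystine/glutamate exchanger. In the RefSeq promoter set (build GRCm38.p6, 250 bases before to 50 after each start), 44 of the 60 genes had an entry. The motif TGATGCAA, read on both strands, was in 4 of the 62 promoter entries of these genes and in 0.895% of all 32851 entries. It was found in 3 of the 44 genes (Slc7a11, Slc7a7 and Slc1a4). In Slc1a4 it lay after the start. The stretches before the start are given 5′ to 3′ on the gene's strand, with the motif in capitals. The first is chr3:50443614-50443725 (minus strand), with matches that begin 66 and 47 bases before the start, and the second chr14:54417892-54417952 (minus strand), with a match that begins 243 bases before it.
Slc7a11: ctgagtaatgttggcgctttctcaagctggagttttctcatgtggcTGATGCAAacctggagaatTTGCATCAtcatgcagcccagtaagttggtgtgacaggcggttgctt
Slc7a7: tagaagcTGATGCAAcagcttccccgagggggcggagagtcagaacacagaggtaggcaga
The pair in Slc7a11 stands in opposite orientations. The palindromic corticosteroid receptor element (AGAACA, then NNN, then TGTTCT) was in none of the 44 genes' promoters and in 0.00913% of all entries. Its single arm AGAACA, a part of the whole element, read on both strands, was in 14 of the 62 entries and in 19% of all entries. The 14 entries came from 10 of the 44 genes. These are matches of letters in a short window and say nothing of binding.

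At 6 h, 13 of the 60 carrier genes passed the test (limma with Benjamini-Hochberg adjustment over 15078 features, threshold 0.05), 4 above vehicle and 9 below. That is 21.7% of the carriers, beside 17.8% of all features called at 6 h (7.13% above and 10.7% below). Scaling by the median absolute value or quantile normalization gave 9 above and 13 below at 6 h, and SAM 10 above and 14 below. All features called at 6 h were then 33.3% with scaling, 32.3% with quantile normalization and 33.9% with SAM. At 1 h, 23 carriers passed, 13 above vehicle and 10 below, or 38.3% beside 41% of all features (20% above and 21% below). Both shares lay near the background, so the count of calls does not set carriers apart. The median log2 ratio of the carriers was 0.02 at 6 h and 0.07 at 1 h, against 0.00 over all features at both times. Of the carriers 8 passed at both times, 5 at 6 h and not at 1 h, 15 at 1 h and not at 6 h, and 32 at neither. Calls of at least 1.5-fold numbered 3 at 6 h (Slc6a21, Slc7a3 and Slc7a12), or 5% beside 4.02% of all features, and 6 at 1 h (Slc2a1, Slc2a3, Slc2a4, Slc6a20b, Slc6a21 and Slc7a3), or 10% beside 7.91%. Above 0 on all 8 arrays were 10 carriers (16.7%) beside 14.6% of all features, and below 0 on all 8 were 9 (15%) beside 15.1%. Errors below are standard errors from this fit, with n = 4 arrays at each time. Calls were also repeated with each array left out. All features called were then 7.29% to 11.6% at 6 h and 28.7% to 34.6% at 1 h. A call lost in such a fit does not by itself show that it rested on the array left out.

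**Figure D1:**
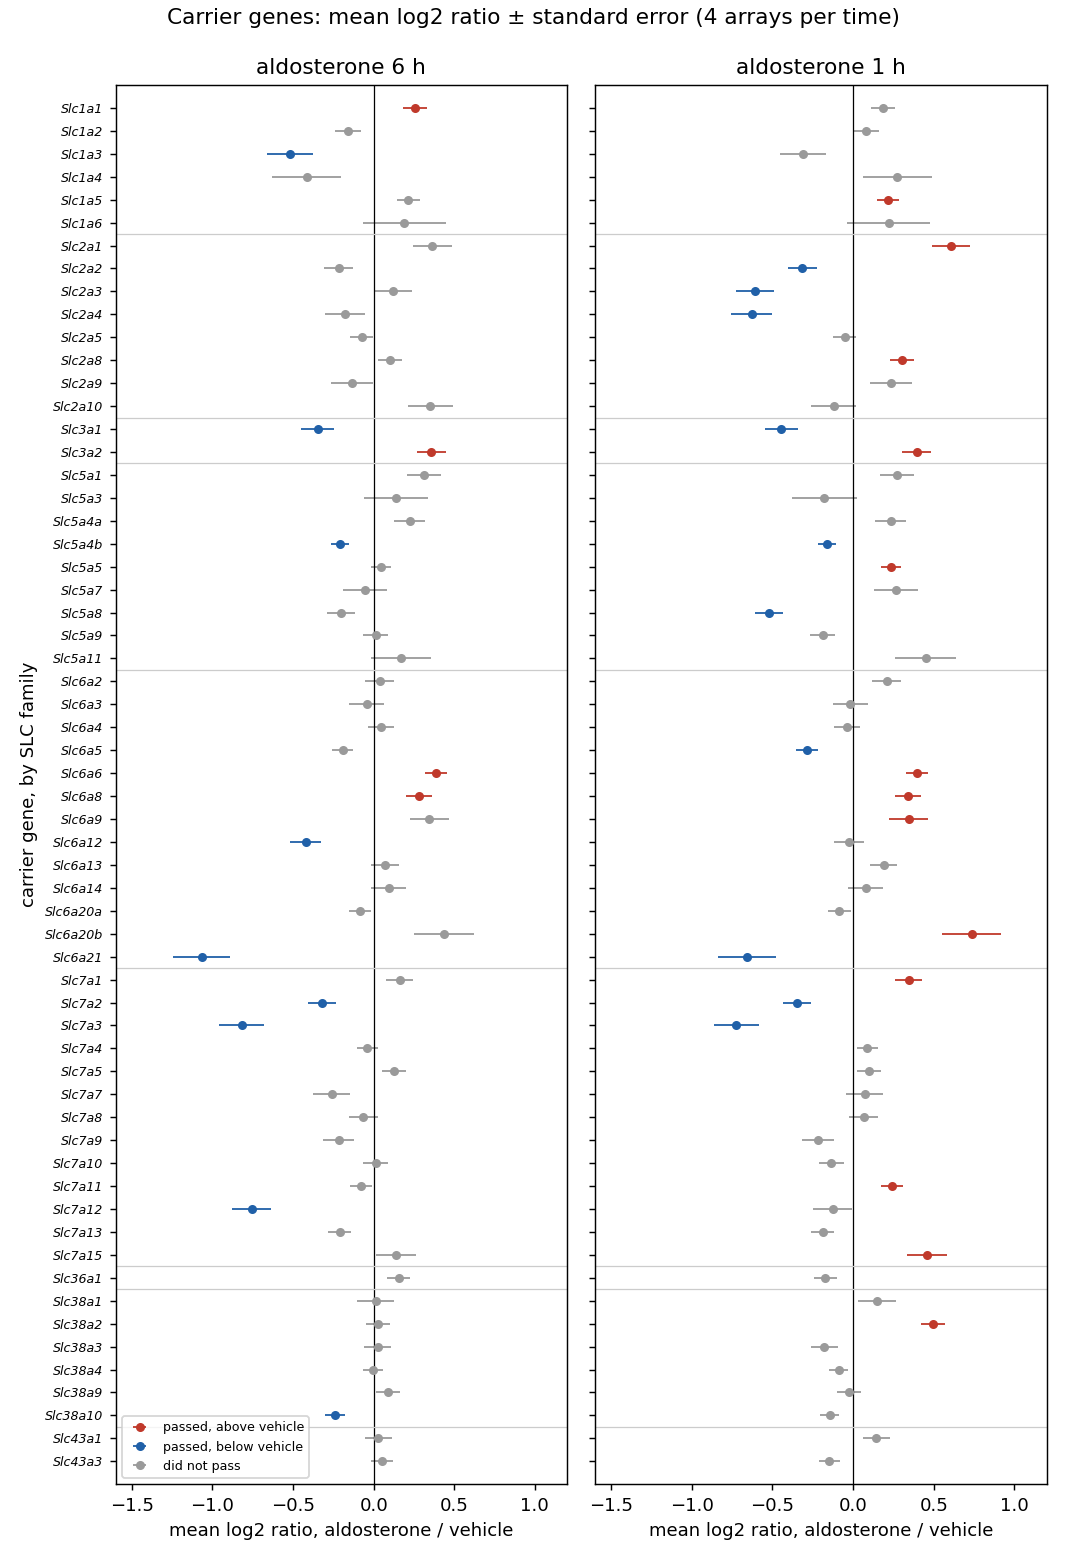
Mean log2 ratio of aldosterone over vehicle for each of the 60 carrier genes at 6 h (left) and 1 h (right), grouped by family; bars are standard errors from the fit, n = 4 arrays per time, red passed above vehicle, blue passed below and grey did not pass. The means run from -1.07 (Slc6a21) to 0.44 (Slc6a20b, which did not pass) at 6 h and from -0.72 (Slc7a3) to 0.73 (Slc6a20b) at 1 h.

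The sign of a carrier at 6 h was mostly its sign at 1 h. Across genes, the mean ratios at 6 h and 1 h had a Pearson correlation of 0.65 over the 60 carriers and 0.68 over all 15078 features. The points share the probes and the dye orientation, and genes are not independent replicates. The same sign was found for 42 of the carriers (70%) and for 77.4% of all features. No carrier passed in opposite directions at the 2 times, beside 0.0398% of all features that did.

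**Figure D2:**
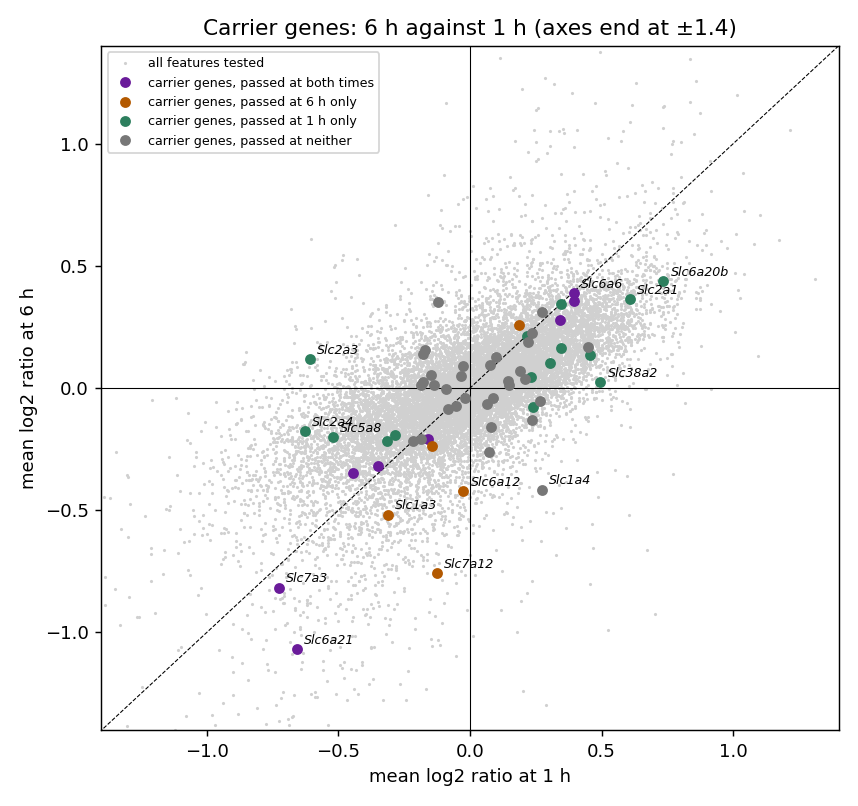
Mean log2 ratio at 6 h (vertical) against 1 h (horizontal) for the 60 carrier genes, coloured by the times at which they passed, over all features in light grey; the dashed line marks equal ratios, and features beyond 1.4 are not drawn. Slc6a21 and Slc7a3 lie low at both times, Slc7a12 is low at 6 h, and Slc38a2 and Slc2a3 lie near 0 at 6 h and to the right and left at 1 h.

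Carriers above vehicle at both times were Slc3a2, Slc6a6 and Slc6a8, 3 of 60 or 5%, beside 5.16% of all features. Slc6a6 encodes the taurine carrier, which loads cells with this organic osmolyte. Its log2 ratios were 0.53, 0.29, 0.38 and 0.35 on 6 h replicates 1 to 4, and 0.44, 0.32, 0.31 and 0.51 on 1 h replicates 1 to 4. All 8 values lay above 0 in a narrow band, and the times overlapped. It rose 1.31-fold at 6 h (0.39 ± 0.07, adjusted p = 0.00657) and 1.31-fold at 1 h (0.40 ± 0.07, adjusted p = 0.00284), and was the one carrier above vehicle whose call held at both times without each array in turn.

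Slc3a2, the 4F2 heavy chain that carries Slc7 light chains such as LAT1 and xCT to the plasma membrane, had 0.26, 0.37, 0.28 and 0.52 on the 6 h arrays. On the 1 h arrays it had 0.35, 0.16, 0.38 and 0.69. Replicate 4 was the highest at each time, and every value was above 0. The means were 0.36 ± 0.09 at 6 h (1.28-fold, adjusted p = 0.0243) and 0.40 ± 0.09 at 1 h (1.31-fold, adjusted p = 0.00779). The 6 h call ended without replicate 2 (adjusted p = 0.0765), 3 (0.0596) or 4 (0.105). Slc6a8, the creatine carrier, had 0.39, 0.11, 0.17 and 0.45 at 6 h and 0.44, 0.26, 0.47 and 0.20 at 1 h. Again no array was below 0, at 0.28 ± 0.08 (adjusted p = 0.0404) at 6 h and 0.34 ± 0.08 (adjusted p = 0.00954) at 1 h. Its 6 h call ended when any 1 array was left out (adjusted p between 0.0564 and 0.165), with means from 0.22 (without replicate 4) to 0.34 (without replicate 2).

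Carriers below vehicle at both times were Slc3a1, Slc5a4b, Slc6a21, Slc7a2 and Slc7a3, 5 of 60 or 8.33%, beside 6.94% of all features. Slc7a3 encodes CAT3, a cationic amino acid carrier best known from brain. It had -0.26, -1.23, -0.91 and -0.87 at 6 h and -0.50, -1.0, -0.59 and -0.81 at 1 h. Replicate 2 was the lowest at each time, and no array was above 0. The means were -0.82 ± 0.14 at 6 h (adjusted p = 0.00603) and -0.72 ± 0.14 at 1 h (adjusted p = 0.00444), or 0.567 and 0.605 of vehicle, and both calls held without each array.

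Slc6a21 had the lowest mean of any carrier at 6 h. It read -1.05, -1.51, -0.34 and -1.37 on the 6 h arrays and -0.68, -1.06, -0.29 and -0.60 on the 1 h arrays. Replicate 3 was nearest to 0 at each time. The mean was -1.07 ± 0.18 at 6 h (0.477 of vehicle, adjusted p = 0.00554) and -0.66 ± 0.18 at 1 h (0.634 of vehicle, adjusted p = 0.017). The 1 h call ended without replicate 2 (adjusted p = 0.069).

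Slc7a2 encodes CAT2, a carrier of arginine, lysine and ornithine. Its ratios were -0.16, -0.52, -0.24 and -0.36 at 6 h and -0.30, -0.60, -0.24 and -0.25 at 1 h. All arrays were below 0, with replicate 2 the lowest at each time. The means were -0.32 ± 0.08 at 6 h (adjusted p = 0.0306) and -0.35 ± 0.08 at 1 h (adjusted p = 0.0111), and the 6 h call ended without replicate 2 (0.12), 3 (0.0694) or 4 (0.105). Slc3a1, the rBAT heavy chain of the cystine and dibasic amino acid carrier of the proximal tubule, had -0.12, -0.31, -0.22 and -0.74 at 6 h. At 1 h it had -0.58, -0.25, -0.40 and -0.55. No array was above 0, and the heavy chain genes Slc3a1 and Slc3a2 thus passed in opposite directions at each time. Its means were -0.35 ± 0.10 at 6 h (adjusted p = 0.044) and -0.45 ± 0.10 at 1 h (adjusted p = 0.00881). Without replicate 4 at 6 h the mean was -0.22 (adjusted p = 0.169), and the call also ended without replicate 2 (0.104) or 3 (0.0797).

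Slc5a4b, a member of the SGLT3 branch of the sodium-glucose family, ranged from -0.25 to -0.17 at 6 h and from -0.20 to -0.11 at 1 h. Its ratio was small and even, at -0.21 ± 0.06 (adjusted p = 0.0335) at 6 h and -0.16 ± 0.06 (adjusted p = 0.0478) at 1 h. The 6 h call ended when any 1 array was left out (adjusted p between 0.0823 and 0.119), and the 1 h call without replicate 1 (0.134), 2 (0.119) or 3 (0.114) and after scaling, quantile normalization or robust moderation. Its near copy Slc5a4a read 0.22 ± 0.10 at 6 h (adjusted p = 0.131) and 0.23 ± 0.10 at 1 h (adjusted p = 0.0757), above 0 on all 8 arrays, and did not pass. Cross-hybridisation between such copies was not tested.

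**Figure D3:**
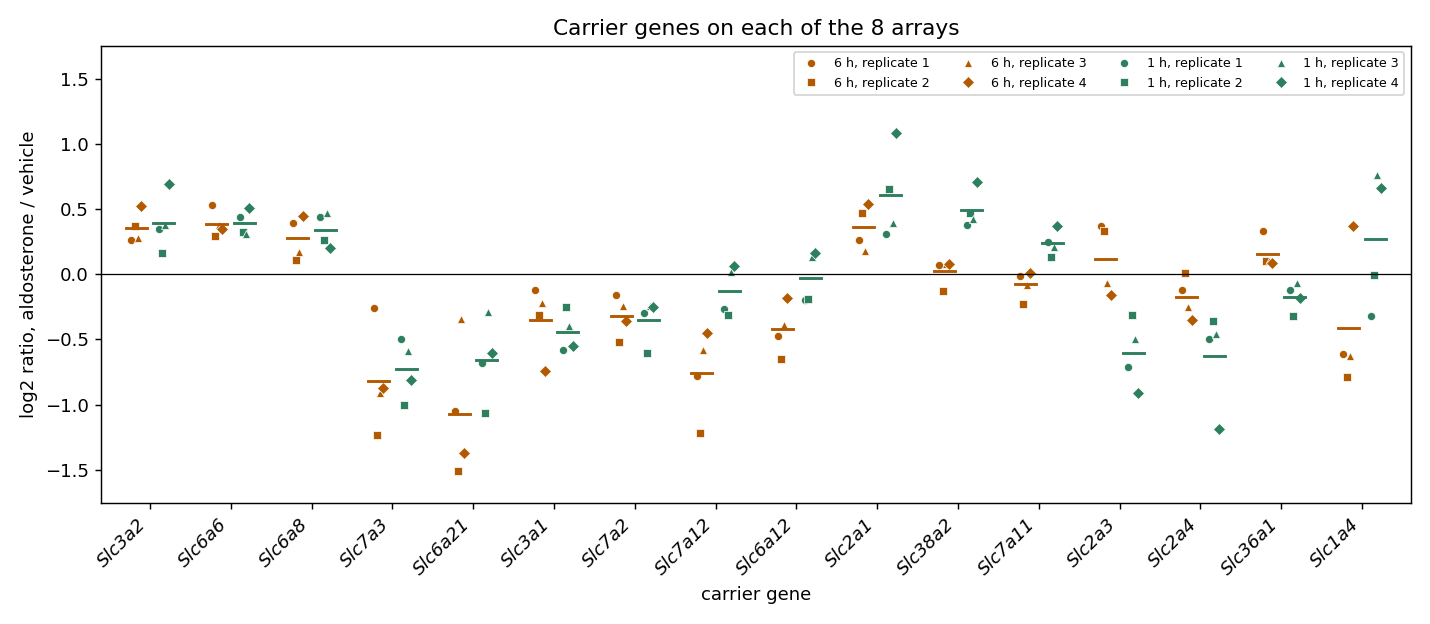
Log2 ratio of aldosterone over vehicle on each array for 16 carrier genes, with 6 h (orange) left of 1 h (green); marker shapes are replicates and lines are means of the 4 arrays. Slc3a2, Slc6a6 and Slc6a8 sit above 0 and Slc7a3, Slc6a21, Slc3a1 and Slc7a2 below 0 on every array, while the 6 h and 1 h arrays do not overlap for Slc7a12, Slc38a2, Slc7a11, Slc2a3, Slc2a4 and Slc36a1.

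At 6 h and not at 1 h, 5 carriers passed: Slc7a12, Slc6a12, Slc1a3, Slc38a10 and Slc1a1. The difference of 6 h minus 1 h passed for none of the 5 (adjusted p between 0.202 and 0.735). At 1 h Slc1a3 was at -0.31 ± 0.14 (adjusted p = 0.106) and Slc38a10 at -0.145 ± 0.06 (adjusted p = 0.0809). Slc1a1 was at 0.18 ± 0.07 at 1 h (adjusted p = 0.0713), so these carriers kept their 6 h sign. Slc7a12 encodes Asc-2, a light chain for small neutral amino acids. It had -0.78, -1.22, -0.58 and -0.45 at 6 h, against -0.27, -0.31, 0.02 and 0.06 at 1 h. The times did not overlap. It was 0.592 of vehicle at 6 h (-0.76 ± 0.12, adjusted p = 0.00477), and this call held without each array; at 1 h the mean was -0.12 ± 0.12 (adjusted p = 0.426). Slc6a12 encodes the betaine carrier BGT1, an osmolyte carrier of the renal medulla that responds to high salt. It had -0.47, -0.65, -0.39 and -0.18 at 6 h, against -0.20, -0.19, 0.13 and 0.16 at 1 h. The lowest values came from 6 h arrays, but the times overlapped. Its mean was -0.42 ± 0.09 at 6 h (adjusted p = 0.0166), lost without replicate 1 (0.0545), 2 (0.0728) or 3 (0.0522), and -0.03 ± 0.09 at 1 h (adjusted p = 0.85).

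Slc1a1 and Slc1a3 encode the glutamate and aspartate carriers EAAC1, which is also a proximal tubule carrier, and GLAST, a carrier of glial cells. Slc1a3 had -0.22, -1.07, -0.26 and -0.52 at 6 h and lay between -0.54 and 0.00 at 1 h. Replicate 2 at 6 h stood below the rest: the mean was -0.52 ± 0.14 (adjusted p = 0.0349), and -0.33 without it (adjusted p = 0.117), and the call also ended without replicate 3 (0.0539) or 4 (0.106). Slc1a1 had 0.34, 0.27, 0.29 and 0.13 at 6 h and 0.11, 0.01, 0.36 and 0.26 at 1 h. It was above 0 on all arrays and passed at 6 h at 0.26 ± 0.07 (adjusted p = 0.0408), a call that ended when any 1 array was left out (adjusted p between 0.0693 and 0.125). Slc38a10 passed at 6 h at -0.24 ± 0.06 (adjusted p = 0.0269), also lost when any 1 array was left out (0.0592 to 0.104). Its probes disagreed: one read -0.33 ± 0.07 at 6 h and -0.02 ± 0.07 at 1 h, the other -0.15 ± 0.07 at 6 h and -0.27 ± 0.07 at 1 h. Fitted singly, the first probe passed at 6 h (adjusted p = 0.0131) and not at 1 h (0.835). The second passed at 1 h (0.0134) and not at 6 h (0.163), so the time of the call depends on the probe.

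Among the passive hexose carriers (Slc2), none of 8 genes passed at 6 h, and at 1 h 2 were above vehicle and 3 below. That is 0% at 6 h and 62.5% at 1 h, beside 17.8% and 41% of all features. Slc2a1 encodes GLUT1, the housekeeping glucose carrier of most cells, including the distal nephron. Its log2 ratios were 0.26, 0.47, 0.18 and 0.54 at 6 h and 0.31, 0.65, 0.39 and 1.08 at 1 h. It was above 0 on all 8 arrays with replicate 4 highest at each time. The 1 h mean was 0.61 ± 0.12 (1.52-fold, adjusted p = 0.00488) and stood at 0.45 without replicate 4 (adjusted p = 0.0119). The 6 h mean was 0.36 ± 0.12 (adjusted p = 0.0649).

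Slc2a3 (GLUT3, the high-affinity carrier of neurons) moved the other way at 1 h. It had 0.37, 0.33, -0.07 and -0.16 at 6 h, against -0.71, -0.31, -0.50 and -0.91 at 1 h. The times did not overlap. The 1 h mean was -0.61 ± 0.12 (0.656 of vehicle, adjusted p = 0.00453), and the 6 h mean 0.12 ± 0.12 (adjusted p = 0.509). Slc2a4 (GLUT4, the insulin-responsive carrier of muscle and fat) had -0.12, 0.01, -0.25 and -0.35 at 6 h, against -0.50, -0.36, -0.46 and -1.19 at 1 h. Replicate 4 at 1 h lay far below the others, but each 1 h array was below each 6 h array. The 1 h mean was -0.63 ± 0.13 (adjusted p = 0.00518) and -0.44 without replicate 4 (adjusted p = 0.00749); the 6 h mean was -0.18 ± 0.13 (adjusted p = 0.346).

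Slc2a8 (GLUT8, an intracellular carrier) ranged from 0.08 to 0.15 at 6 h and from 0.16 to 0.55 at 1 h, where it passed at 0.30 ± 0.08 (adjusted p = 0.0115). Slc2a2 (GLUT2, the basolateral glucose exit of proximal tubule and liver cells) ranged from -0.39 to -0.10 at 6 h and from -0.59 to -0.05 at 1 h. It passed at 1 h at -0.32 ± 0.09 (adjusted p = 0.0207), lost without replicate 1 (0.0637) or 2 (0.0862). Slc2a5 (the fructose carrier), Slc2a9 (the urate carrier) and Slc2a10 passed at neither time, with means from -0.13 to 0.35 at 6 h and from -0.12 to 0.24 at 1 h.

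Of 9 sodium-coupled Slc5 genes, 1 was below vehicle at 6 h and none above, and at 1 h 1 was above and 2 were below. These are 11.1% at 6 h and 33.3% at 1 h, beside 17.8% and 41% of all features. At 1 h there were 3 above and 1 below without replicate 1, beside 33.2% of all features called. Without 1 h replicate 3 there were none above and 1 below, beside 30.1%. Slc5a8 encodes SMCT1, a lactate and short-chain fatty acid carrier. It had -0.19, -0.21, -0.41 and 0.00 at 6 h and -0.53, -0.39, -0.40 and -0.76 at 1 h. The 1 h arrays were all clearly below 0, and the times overlapped through 6 h replicate 3. Its 1 h mean was -0.52 ± 0.09 (0.697 of vehicle, adjusted p = 0.00264), and its 6 h mean -0.20 ± 0.09 (adjusted p = 0.133). Slc5a5, the iodide carrier, passed at 1 h at 0.23 ± 0.06 (adjusted p = 0.0158), lost without replicate 3 (0.0537), and had a mean of 0.04 ± 0.06 at 6 h (adjusted p = 0.648).

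The other Slc5 genes passed at neither time. Slc5a1 (SGLT1, the high-affinity sodium-glucose carrier) averaged 0.31 ± 0.11 at 6 h (adjusted p = 0.0668) and 0.27 ± 0.11 at 1 h (adjusted p = 0.0614). Slc5a3 (SMIT1, which takes up the osmolyte myo-inositol) had 0.29, -0.06, -0.01 and 0.34 at 6 h and 0.21, 0.37, -0.19 and -1.10 at 1 h. Its arrays differed in sign at each time, and 1 h replicate 4 lay far below the rest. Slc5a11 (SMIT2) averaged 0.17 ± 0.19 at 6 h and 0.45 ± 0.19 at 1 h. Slc5a4a, Slc5a7 and Slc5a9 made up the rest.

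The Slc38 family carries glutamine and other small neutral amino acids with sodium. At each time 1 of its 6 genes (16.7%) passed, beside 17.8% of all features at 6 h and 41% at 1 h. These were different genes, Slc38a10 below vehicle at 6 h (described above) and Slc38a2 above vehicle at 1 h. Slc38a2 encodes SNAT2, the carrier that cells raise when amino acids are short or the medium is hypertonic. It had 0.07, -0.13, 0.08 and 0.08 at 6 h, against 0.38, 0.47, 0.42 and 0.71 at 1 h. All 1 h arrays lay above all 6 h arrays, and the 6 h arrays lay around 0. It rose 1.41-fold at 1 h (0.49 ± 0.07, adjusted p = 0.00186), a call that held without each 1 h array, and averaged 0.03 ± 0.07 at 6 h (adjusted p = 0.839). Slc38a1, Slc38a3, Slc38a4 and Slc38a9, the last a lysosomal arginine sensor, passed at neither time, with means from 0.00 to 0.09 at 6 h and from -0.18 to 0.15 at 1 h.

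Among the other 1 h calls, Slc7a1 (CAT1, the general cationic amino acid carrier) had 0.06, 0.25, -0.06 and 0.40 at 6 h and 0.26, 0.43, 0.27 and 0.42 at 1 h. It passed at 1 h at 0.34 ± 0.08 (1.27-fold, adjusted p = 0.0105) and did not at 6 h (0.16 ± 0.08, adjusted p = 0.195). CAT1 was thus above vehicle at 1 h where CAT2 and CAT3 were below. Slc7a11 (xCT, which imports cystine for glutathione synthesis) had -0.01, -0.23, -0.08 and 0.01 at 6 h, against 0.25, 0.13, 0.21 and 0.37 at 1 h. The times did not overlap. Its 1 h mean was 0.24 ± 0.07 (adjusted p = 0.0209), lost without replicate 1 (0.0593), 3 (0.0552) or 4 (0.0623), and its 6 h mean -0.08 ± 0.07 (adjusted p = 0.447). Slc7a7, the y+LAT1 light chain, whose promoter also holds the amino acid response motif, averaged -0.26 ± 0.11 at 6 h (adjusted p = 0.139) and 0.07 ± 0.11 at 1 h (adjusted p = 0.633).

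Slc7a15 had 0.11, 0.00, 0.10 and 0.34 at 6 h and 0.26, 0.17, 0.41 and 0.99 at 1 h. Replicate 4 was the highest at each time, and the 1 h mean of 0.46 ± 0.12 (adjusted p = 0.0165) was 0.28 without it (adjusted p = 0.0353). The remaining Slc7 genes, which include the LAT1 light chain gene Slc7a5, passed at neither time. Slc7a5 averaged 0.13 ± 0.07 at 6 h and 0.10 ± 0.07 at 1 h, and the 7 genes of this kind ran from -0.26 to 0.13 at 6 h and from -0.22 to 0.10 at 1 h.

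In the Slc6 family, which moves neurotransmitters, osmolytes and amino acids with sodium and chloride, 2 of 13 genes were above vehicle and 2 below at 6 h, and 4 above and 2 below at 1 h. The shares were 30.8% at 6 h and 46.2% at 1 h, beside 17.8% and 41% of all features. At 6 h there were 1 above and 1 below without replicate 1, 2 or 3, and 1 above and 2 below without replicate 4. All features called at 6 h were then 7.29% to 11.6%. Without 1 h replicate 4 there were 2 above and 2 below, beside 28.7% of all features. Slc6a20b had the highest mean of any carrier at 1 h. It had 0.13, 0.08, 0.30 and 1.24 at 6 h and 0.52, 0.54, 0.66 and 1.22 at 1 h. Replicate 4 was far above the others at each time. The 1 h mean was 0.73 ± 0.18 (adjusted p = 0.0126), and 0.57 without replicate 4 (adjusted p = 0.0596). Its near copy Slc6a20a, an imino acid carrier, was at -0.09 ± 0.07 at each time and did not pass.

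Slc6a9 (GLYT1, a glycine carrier) had 0.26, 0.06, 0.30 and 0.76 at 6 h and 0.09, 0.19, 0.63 and 0.47 at 1 h. Its 1 h call (0.34 ± 0.12, adjusted p = 0.0444) ended without replicate 2 (0.0606), 3 (0.179) or 4 (0.139), and after scaling of the arrays to a common spread (0.0536). Slc6a5, the neuronal glycine carrier GLYT2, passed at 1 h at -0.28 ± 0.07 (adjusted p = 0.00904) and stood at -0.19 ± 0.07 at 6 h (adjusted p = 0.0716). The carriers of noradrenaline (Slc6a2), dopamine (Slc6a3) and serotonin (Slc6a4), with Slc6a13, Slc6a14 and Slc6a20a, passed at neither time, with means from -0.09 to 0.09 at 6 h and from -0.09 to 0.21 at 1 h.

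Slc1a5 (ASCT2, a glutamine exchanger) had 0.27, 0.29, 0.09 and 0.21 at 6 h and 0.10, 0.14, 0.25 and 0.38 at 1 h. It passed at 1 h at 0.22 ± 0.07 (adjusted p = 0.0326), lost without replicate 2 (0.0522), 3 (0.0998) or 4 (0.0986) and after scaling of the arrays to a common spread, and did not pass at 6 h (0.21 ± 0.07, adjusted p = 0.0601). Slc1a4 (ASCT1, for alanine, serine and cysteine) had -0.61, -0.79, -0.63 and 0.37 at 6 h, and -0.32, 0.00, 0.76 and 0.66 at 1 h. Its arrays disagreed in sign at each time, and neither mean passed (-0.41 ± 0.21, adjusted p = 0.198 at 6 h and 0.27 ± 0.21, adjusted p = 0.322 at 1 h). Slc1a2 and Slc1a6 did not pass, nor did Slc43a1 (LAT3, a branched-chain amino acid carrier) and Slc43a3, whose means lay between 0.03 and 0.05 at 6 h and between -0.15 and 0.14 at 1 h.

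The difference of 6 h minus 1 h, tested in the same limma fit, passed for none of the 60 carriers, beside 0.0265% of all features (4 of 15078). At an unadjusted p under 0.05 the difference held for 10 carriers (16.7%), beside 16.1% of all features, and the SAM test called 1, Slc2a3. The arrays of the times did not overlap for 9 carriers (15%), beside 9.78% of all features. They were Slc2a3, Slc2a4, Slc2a8, Slc5a5, Slc7a11, Slc7a12, Slc36a1, Slc38a2 and Slc38a3. The smallest p-values belonged to Slc38a2 (-0.47 ± 0.11, adjusted p = 0.186), Slc2a3 (0.72 ± 0.17, adjusted p = 0.188) and Slc7a12 (-0.63 ± 0.17, adjusted p = 0.202). Slc36a1 (PAT1, a proton-coupled amino acid carrier of lysosomes and brush borders) had 0.33, 0.10, 0.10 and 0.09 at 6 h, against -0.12, -0.32, -0.07 and -0.18 at 1 h. It was above vehicle on all 6 h arrays and below on all 1 h arrays, but passed neither at 6 h (0.15 ± 0.07, adjusted p = 0.152) nor at 1 h (-0.17 ± 0.07, adjusted p = 0.0754), and its difference of 0.33 ± 0.10 did not pass (adjusted p = 0.21).

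Carriers were also counted by role. Of 11 measured carriers of the proximal tubule, 1 was above vehicle and 1 below at 6 h, and 1 above and 3 below at 1 h. Of 9 neuronal carriers, none was above and 1 below at 6 h, and 1 was above and 1 below at 1 h. Of 4 osmolyte carriers, 1 (Slc6a6) was above and 1 (Slc6a12) below at 6 h, and at 1 h 2 (Slc6a6 and Slc38a2) were above and none below. The shares called were 18.2% of the proximal tubule, 11.1% of the neuronal and 50% of the osmolyte carriers at 6 h, beside 17.8% of all features, and 36.4%, 22.2% and 50% at 1 h, beside 41%. With a 6 h array left out, the calls were 0 or 1 of the 11, 0 or 1 of the 9 and 1 or 2 of the 4. With a 1 h array left out, they were 4 of the 11, 1 or 2 of the 9 and 2 of the 4. The share over all features was then 7.29% to 11.6% at 6 h and 28.7% to 34.6% at 1 h. Without 1 h replicate 1 or 2, the 4 proximal tubule calls were 2 above and 2 below. They were 1 above and 3 below without replicate 3, and none above and 4 below without replicate 4.

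Of the 10 carriers known as targets of the transcription factor ATF4, which amino acid shortage and endoplasmic reticulum stress activate, 1 was above vehicle and 1 below at 6 h, and 6 were above and 1 below at 1 h. The 6 were Slc38a2, Slc3a2, Slc7a1, Slc6a9, Slc7a11 and Slc1a5, and the 1 below was Slc7a3. The median ratio of the 10 was 0.08 at 6 h and 0.26 at 1 h, and 7.13% of all features were called above at 6 h and 20% at 1 h. On 1 h replicates 1 to 4 the median was 0.10, 0.14, 0.26 and 0.40. Sgk1 read 1.65, 1.38, -0.64 and -0.16 on these arrays, and Tsc22d3 1.01, 0.88, -0.60 and -0.15. The medians of 0.26 and 0.40 thus came from the arrays where both genes were below 0, while Fkbp5 and Scnn1a were above 0 on all 4. How the list's ratios relate to these hormone-induced genes was not tested. Without 1 h replicate 4 the numbers were 3 above and 1 below with a median of 0.18, and without replicate 3 also 3 above and 1 below with a median of 0.23. Over all features the share called at 1 h in either direction fell to 28.7% without replicate 4 and to 30.1% without replicate 3, against 41% with all arrays. Of 15078 features, 2024 were called above without replicate 4 and 2158 without replicate 3, against 3010 with all arrays. At 6 h the 1 above, Slc3a2, was lost without replicate 2, 3 or 4.

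**Figure D4:**
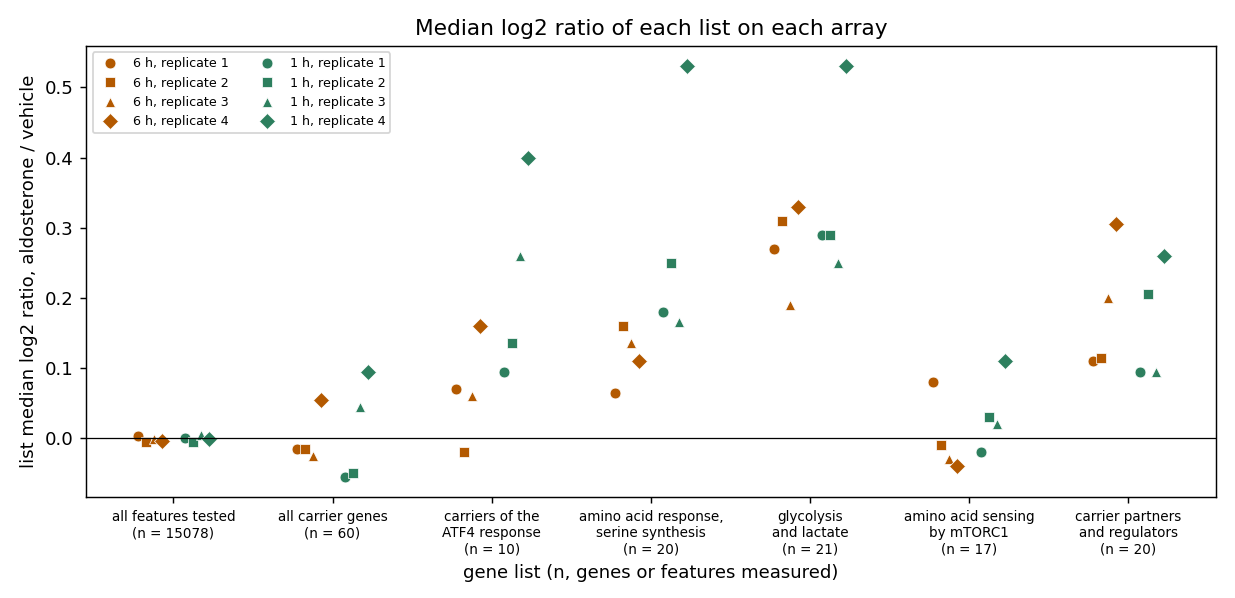
Median log2 ratio over each gene list on each array, 6 h (orange) left of 1 h (green), with marker shapes for replicates and the number of genes or features under each name. The all-feature medians lie at 0.00 and the carriers between -0.06 and 0.10, while replicate 4 at 1 h is the highest array for the ATF4 carriers (0.40), the amino acid response list (0.53) and the glycolysis list (0.53).

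Other genes of the pathways were taken from lists that do not hold carriers of these families. These lists too were chosen with earlier results of these data known. Of 20 measured amino acid response and serine synthesis genes, 5 were above vehicle and none below at 6 h (median 0.11), and 12 were above and 2 below at 1 h (median 0.31). That is 25% at 6 h and 70% at 1 h, beside 17.8% and 41% of all features. Atf4 itself was at 0.33 ± 0.08 at 6 h (adjusted p = 0.0174) and 0.46 ± 0.08 at 1 h (adjusted p = 0.00243). Vldlr was at 0.04 ± 0.08 at 6 h (adjusted p = 0.781) and 0.52 ± 0.08 at 1 h (adjusted p = 0.00179), and Cebpb at 0.51 ± 0.08 at 6 h (adjusted p = 0.00388) and 0.23 ± 0.08 at 1 h (adjusted p = 0.0386). Ddit3, another gene of this response, was below vehicle at 1 h (-0.27 ± 0.09, adjusted p = 0.0339). This call ended without replicate 1 (0.0936) or 4 (-0.17, adjusted p = 0.118). The other gene below vehicle at 1 h, Eif2ak4, was at -0.38 ± 0.07 (adjusted p = 0.0034), with all 4 arrays between -0.45 and -0.28. Eif2ak4 was not among the single calls followed through the alternatives. The 6 h call of Atf4 ended without replicate 1 (0.0624), 2 (0.0567) or 3 (0.076), and the 1 h call of Cebpb when any 1 array was left out (0.0535 to 0.133). The list's 1 h median on replicates 1 to 4 was 0.18, 0.25, 0.17 and 0.53, and without replicate 4 the count was 8 above and 1 below, without replicate 2 8 above and 2 below. All features called at 1 h were then 28.7% without replicate 4 and 34.6% without replicate 2.

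Of 21 measured genes of glycolysis and lactate transport, 10 were above vehicle and 1 (Ldhb) below at 6 h (median 0.29), and 16 were above and none below at 1 h (median 0.37). Over all features 7.13% were above and 10.7% below at 6 h, and 20% above and 21% below at 1 h. Hk2, which phosphorylates the glucose that enters, was at 0.46 ± 0.07 at 6 h (adjusted p = 0.00415) and 0.66 ± 0.07 at 1 h (adjusted p = 0.000914). Tpi1 was at 0.58 ± 0.11 at 6 h (adjusted p = 0.00939) and 0.74 ± 0.11 at 1 h (adjusted p = 0.00189). Pfkfb3, which makes the activator of phosphofructokinase, was at 0.59 ± 0.10 at 6 h (adjusted p = 0.00682) and 0.61 ± 0.10 at 1 h (adjusted p = 0.0027). The list's medians lay between 0.19 and 0.33 on the 6 h arrays and between 0.25 and 0.53 on the 1 h arrays. With a 6 h array left out, 5 or 6 of these genes were above vehicle, and with a 1 h array left out 12 to 14 were. Of all 15078 features, 347 to 606 were then called above at 6 h, against 1075 with all arrays. At 1 h, 2024 to 2496 were then called above, against 3010 with all arrays.

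Of 20 measured carrier partners and regulators, 6 were above vehicle and 1 below at 6 h, and 9 above and 2 below at 1 h, or 35% at 6 h and 55% at 1 h, beside 17.8% and 41% of all features. At 6 h the number above was 2 without replicate 2 and 3 without replicate 3 or 4. Of all 15078 features, 421, 483 and 347 were called above without replicates 2, 3 and 4, against 1075 with all arrays. Bsg, the chaperone of lactate carriers, was at 0.16 ± 0.12 at 6 h (adjusted p = 0.371) and 0.65 ± 0.12 at 1 h (adjusted p = 0.00358). Tbc1d1, which restrains GLUT4 traffic, was at 0.50 ± 0.09 at 6 h (adjusted p = 0.00615) and 0.32 ± 0.09 at 1 h (adjusted p = 0.0163), a 1 h call lost without replicate 4 (0.0523). Sgk1, a kinase known to raise the activity of several of these carriers, was at 1.91 ± 0.35 at 6 h (adjusted p = 0.00794) and 0.56 ± 0.35 at 1 h (adjusted p = 0.227). Cltrn, which brings Slc6 carriers to the surface of proximal tubule cells, was below vehicle at 6 h (-0.57 ± 0.17, adjusted p = 0.0438) and at 1 h (-0.47 ± 0.17, adjusted p = 0.0492). Its 6 h call ended when any 1 array was left out (0.0522 to 0.177), and its 1 h call without replicate 2 (0.0736), 3 (0.109) or 4 (-0.25, adjusted p = 0.21).

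Of 17 measured genes of amino acid sensing by mTORC1, 2 were above vehicle and 1 below at 6 h, and 3 were above and 2 below at 1 h. Rragc, a Rag GTPase, was at 0.39 ± 0.09 at 6 h (adjusted p = 0.0181) and 0.41 ± 0.09 at 1 h (adjusted p = 0.00712). Lamtor3, a subunit of the lysosomal scaffold, was at 0.35 ± 0.08 at 6 h (adjusted p = 0.0175) and 0.35 ± 0.08 at 1 h (adjusted p = 0.00816). Nprl2, of the complex that restrains mTORC1, was at 0.00 ± 0.12 at 6 h (adjusted p = 0.99) and -0.47 ± 0.12 at 1 h (adjusted p = 0.0113). The 6 h calls ended without replicate 1 (0.0672), 2 (0.0511) or 3 (0.0659) for Rragc and without replicate 1 (0.0621), 3 (0.059) or 4 (0.0596) for Lamtor3. Without 6 h replicate 1 or 3 none of the 17 was called at 6 h, beside 11.6% and 9.34% of all features. The list's share of calls was 17.6% at 6 h and 29.4% at 1 h, beside 17.8% and 41% of all features.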

How the data were processed

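Each deposited value is a log2 ratio (Cy5 to Cy3). Per the labels, the authors scanned with a GenePix instrument, kept arrays of reasonable quality and normalized them with Bioconductor tools. How background was corrected and which normalization was used is not given in the sources used here. Probes were named through the platform annotation (13768 of 16361 with 1 symbol, 13 with several, 2580 not listed and unnamed here). Probes of 1 gene measured at both times were averaged. Testing needed values on 3 of the 4 arrays of each time, which left 15078 features, 12535 of them genes and the rest unnamed probes. Limma (version 3.58.1, R 4.3.3) fitted a mean per time over all 8 arrays, tested each against 0 and their difference, two-sided, with Benjamini-Hochberg adjustment over all features. The labels name a one-class SAM test, which was run as an alternative. The alternatives were scaling by the median absolute value, quantile normalization, median centring, single probes, all 8 values required, robust moderation, array weights, each time alone, SAM and each array left out. Leaving out arrays for the gene lists was chosen after seeing the data. The fit was tested on simulated data. Genes described in full were first chosen per time. They were up to 8 of the highest and 8 of the lowest carrier means that passed with the same sign on all 4 arrays. Also described in full were the 3 smallest p-values of the difference and the 3 smallest of each other list. Further carriers were given to account for every member. Ddit3, Eif2ak4, Cltrn and single called genes of small counts were chosen after their values were seen. The members and lists were chosen with earlier results of these data known. Lists were matched by symbol or synonym. Promoter sequences are from RefSeq, build GRCm38.p6. Figures were drawn with matplotlib 3.10.9.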

Additional observations from a re-analysis of the deposited data

Results flagged for a closer look

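Among 120 sets of 4 arrays (60 carriers at each time), 9 (7.5%) had an array whose gap to its nearest neighbour exceeded Dixon's critical share of the set's range, where chance gives about 1 in 20. At 6 h these were Slc1a4 on replicate 4 (0.37, others from -0.79 to -0.61), Slc2a8 on replicate 4 (0.15, others from 0.08 to 0.09), Slc6a5 on replicate 1 (-0.34, others from -0.16 to -0.13), Slc36a1 on replicate 1 (0.33, others from 0.09 to 0.10), Slc38a2 on replicate 2 (-0.13, others from 0.07 to 0.08) and Slc38a9 on replicate 4 (0.29, others from 0.00 to 0.04). At 1 h they were Slc2a4 on replicate 4 (-1.19, others from -0.50 to -0.36), Slc7a2 on replicate 2 (-0.60, others from -0.30 to -0.24) and Slc38a3 on replicate 4 (-0.51, others from -0.08 to -0.06).

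Slc36a1 lay above vehicle on all 4 arrays at 6 h and below on all 4 at 1 h; the difference of 6 h minus 1 h was 0.33 and did not pass in limma (adjusted p = 0.21).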

How the results depend on the processing

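The 36 calls of carriers and 23 calls of named genes from other lists kept their direction under every alternative run. Of these 59 calls, 34 stayed past the threshold throughout, and the other 25 ended without at least 1 array of their time. Fits of each time alone ended 12 of the 25, among carriers Slc1a3, Slc3a1, Slc5a4b and Slc6a8 at 6 h and Slc1a5, Slc2a2, Slc5a4b, Slc5a5 and Slc7a11 at 1 h. The carriers called at 6 h were 22 after scaling by the median absolute value, 22 after quantile normalization and 24 with SAM (9 above and 13 below, 9 and 13, 10 and 14), against 13 in the limma fit (4 above and 9 below), while all features called were 33.3%, 32.3% and 33.9%, against 17.8%. Without 1 array, the 6 h count was 4 to 8, beside 7.29% to 11.6% of all features. At 1 h no alternative moved the count of 23 by over 1.5 times (18 to 33). For the difference between the times, SAM called 1 carrier (1.91% of all features) and each limma fit 0. The carrier medians moved by less than the spread between arrays. Requiring all 8 values kept the same 15078 features. No paired analysis was possible because the labels give the 1 h arrays no replicate numbers. The cause of these shifts was not tested. Signal over background is unknown here, so a ratio of a dim spot cannot be set apart from that of a bright one.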

Other observations

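Each marker list is given as ratios, since no levels were available. Of 5 measured intercalated cell markers, 1 was above vehicle (Car2) and 1 below (Foxi1) at 6 h, and 1 was above (Car2) and 2 below (Atp6v1b1 and Foxi1) at 1 h. Of 9 proximal tubule markers that are not carriers of these families, 1 was above (Slc22a8) and none below at 6 h, and none was above and 1 below (Kap) at 1 h. Of 8 markers of fibroblasts, endothelial and blood cells, none was above and 1 below at 6 h, and none above and 3 below at 1 h. The shares called were 40%, 11.1% and 12.5% of these lists at 6 h, beside 17.8% of all features, and 60%, 11.1% and 37.5% at 1 h, beside 41%.

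Replicate 4 gave the ratio farthest from 0 for 22 of the 60 carriers at 6 h and for 28 at 1 h, where the other arrays gave it for 9 to 18 carriers at 6 h and for 8 to 13 at 1 h. Over the carriers, the standard deviation of the ratios was 0.394 on replicate 4 at 6 h (0.296 to 0.418 on the others) and 0.525 on replicate 4 at 1 h (0.311 to 0.330 on the others).

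Slc1a6, a glutamate carrier of Purkinje cells, had -0.66, 0.05, 1.29 and 0.08 at 6 h and 0.53, -0.07, 0.61 and -0.19 at 1 h. It passed at neither time. Slc2a10 was at 0.35 ± 0.14 at 6 h (adjusted p = 0.108) and -0.12 ± 0.14 at 1 h. Its difference of 6 h minus 1 h had an unadjusted p under 0.05 and did not pass the adjusted test.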
